A study of Rattus norvegicus with 2 samples.

Results

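Urine RNA of sham-operated and ureter-obstructed rats was compared for 10 genes of the interleukin-1 (IL-1) family, the NLRP3 inflammasome, IL-6 and tumor necrosis factor (TNF). The genes were Il1a, Il1b, Il1rn, Il1r1, Il1r2, Il18, Il6, Tnf, Nlrp3 and Casp1. They were chosen by name, with earlier results of these data known. All 10 were found by NCBI gene ID among the 16484 features with a number-only ID, out of 113011 features in all. There were 2 libraries, 1 per group, both from Sprague Dawley rats labelled as postnatal day 56. In the group named UUO (unilateral ureteral obstruction) the right ureter was ligated. The group named WT had the same operation without ligation, so it is a sham control and not a genotype. Urine was collected through a ureter catheter 2 weeks after the operation, and the number of rats behind each library is not stated.

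With 1 library per group no difference has a replicate check, and each value describes these 2 libraries. The table calls its conditions UrRf and Urc, which were read as UUO and WT. All directions depend on that reading. Values are FPKM, a fragment count divided by transcript length and library size. In the steps of the FPKM values 1 fragment on a 1000 bp feature stood for 0.543 in WT and 0.497 in UUO urine, so a limit of 3 fragments on such a feature lay at an FPKM of 1.63 in WT urine. The limit was 0.759 on a feature of 2000 bp. These limits cover counting error only. Low values were rare in WT urine, where 231 number-only genes had an FPKM above 0 and under 1, against 2730 in UUO urine. A value of 0 may also be a failed estimate, since Gapdh, a gene of every cell, had 0.406 FPKM in the WT library and 0.367 in the UUO library. Such genes are described as listed at 0. The 7218 number-only genes with an FPKM of at least 1 in both libraries had a median log2 difference (UUO minus WT) of -0.81, so a difference near that value is the usual one here.

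IL-1 alpha and IL-1 beta are the agonists of the IL-1 receptor, and the IL-1 receptor antagonist occupies the same receptor without signaling. IL-1 beta and IL-18 are made as precursors, which caspase-1 cleaves after it is activated in an inflammasome such as that of NLRP3. In the kidney these cytokines are known from infiltrating myeloid cells and from injured tubules, and together with TNF they induce chemokines and IL-6.

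Il1b stood out among the 10 genes by its level in UUO urine. It was listed at 0 in WT urine and had an FPKM of 25.7 in UUO urine, where 91.5% of number-only genes had a lower value. Il1rn was the only one above 1 in WT urine. An FPKM above 0 was listed for 2 of the 10 genes in WT and for 8 in UUO urine, against 48.7% and 72.8% of all number-only genes. At an FPKM of at least 1 the counts were 1 and 6, against 47.3% of all number-only genes in WT and 56.3% in UUO urine. On the log2(FPKM + 1) scale, 4 of the 6 genes with an FPKM of at least 1 in either library were at least 2-fold higher in UUO urine and 0 were at least 2-fold lower. Among all 9853 number-only genes counted in this way 25.7% were higher and 36.5% lower. After rescaling to equal sums the 10 genes gave 6 higher and 0 lower, and all number-only genes 3622 higher and 2157 lower, so the balance of directions depends on the scaling. A gene listed at 0 in WT urine that passes this limit must be counted as higher, as all 4 were, so the count of 4 is a description. The other 4 genes, Il1a, Tnf, Il6 and Il18, were under 1 in both libraries. The median log2 difference over all 10 was 0.86, against 0 over all number-only genes. For 6 of the 10 the WT value was 0 and the UUO value was not, so their difference could only be positive. That fixed the sign of the median, which is therefore a description too. Its size came from Nlrp3 (0.74) and Tnf (0.98), and the Tnf value was only about 2.39 fragments per 1000 bases.

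**Figure D1:**
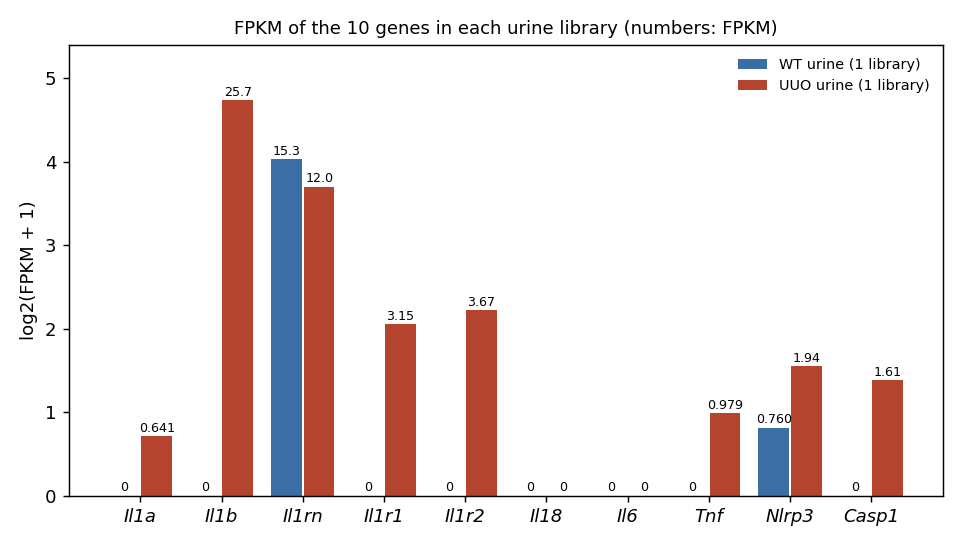
The bars give the level of each gene as log2(FPKM + 1), on an axis that starts at 0, in the WT (blue) and the UUO (red) library, and the number on each bar is the FPKM. Il1rn has high bars in both libraries, Il1b stands at 25.7 in UUO urine alone, and Il6 and Il18 are listed at 0 in both.

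Among the agonists, Il1b (ID 24494, chromosome 3, 128133916 to 128140354, coordinates as listed and rn5 by the submitters' processing notes) stood far above Il1a. It had 0 FPKM in the WT library and 25.7 in the UUO library. In UUO urine this equals about 62.6 fragments per 1000 bases of the length left after a fitted offset of 175 bases is taken off. Fragments of the other genes are given in the same way. Each such number is higher than the count on a feature of 1000 bp, where 1 fragment stood for 0.497 FPKM. The log2 difference was 4.74, and it depends on the pseudocount because the WT value is 0. Il1a (ID 24493, chromosome 3, 128180473 to 128190983) had 0 FPKM in the WT library and 0.641 in the UUO library, or about 1.56 fragments per 1000 bases. Both agonists were thus listed only in UUO urine, but Il1a lay under the 3-fragment limit for a feature of 1000 bp. The 2 loci lie 40119 bp apart.

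The antagonist Il1rn (ID 60582, chromosome 3, 1455906 to 1461452) had 15.3 FPKM in the WT library and 12.0 in the UUO library, a log2 difference of -0.33. It was thus slightly lower in UUO urine as deposited, and higher, at 0.26, after rescaling to equal sums. This difference was smaller than the median of -0.81 for genes detected in both libraries. Antagonist RNA was therefore listed in both libraries and agonist RNA in UUO urine alone. In UUO urine the level of Il1b was 2.14 times that of Il1rn, a ratio within 1 library that no rescaling can change. In WT urine both agonists were listed at 0 beside an Il1rn FPKM of 15.3.

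Windows around the transcription start are shown for the gene with the greatest FPKM in UUO urine (Il1b), the one with the greatest FPKM in WT urine (Il1rn), and the cytokine gene Il6, which was listed at 0 in both. They are RefSeq sequences of the GRCr8 assembly, which is not the build of the FPKM table, and run 5′ to 3′ along the gene from 250 bases before the start to 50 after it. Il1b lies at chr3:137036532-137036831 (minus strand), Il1rn at chr3:27520072-27520371 (plus strand) and Il6 at chr4:5894526-5894825 (minus strand). Capitals mark a TATA sequence (TATAAA), an AP-1 sequence (TGACTCA) or a loose NF-kB form (GGG, a gap of 5 letters, then CC), each searched on both strands.
Il1b: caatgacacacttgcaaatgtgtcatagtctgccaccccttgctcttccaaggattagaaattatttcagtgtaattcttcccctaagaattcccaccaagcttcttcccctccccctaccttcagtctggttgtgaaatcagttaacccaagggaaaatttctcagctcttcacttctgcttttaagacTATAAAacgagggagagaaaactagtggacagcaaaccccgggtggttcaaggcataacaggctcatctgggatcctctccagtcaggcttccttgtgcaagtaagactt
Il1rn: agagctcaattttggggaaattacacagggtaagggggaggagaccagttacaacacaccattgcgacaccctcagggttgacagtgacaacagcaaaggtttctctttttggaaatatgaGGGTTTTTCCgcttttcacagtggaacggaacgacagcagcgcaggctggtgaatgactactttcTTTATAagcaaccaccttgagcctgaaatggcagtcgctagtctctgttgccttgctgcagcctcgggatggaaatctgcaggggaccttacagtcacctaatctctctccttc
Il6: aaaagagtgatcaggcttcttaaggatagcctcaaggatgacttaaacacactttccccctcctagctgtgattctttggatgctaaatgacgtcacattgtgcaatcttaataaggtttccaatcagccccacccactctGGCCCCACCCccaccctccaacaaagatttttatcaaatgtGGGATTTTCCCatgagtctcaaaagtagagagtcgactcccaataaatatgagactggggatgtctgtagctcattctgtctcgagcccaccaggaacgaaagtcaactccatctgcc

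The Il1b window held TATAAA from position -60 and no match to the other letters. The Il1rn window held the NF-kB form from position -129 and a TATA sequence on the opposite strand. The Il6 window held 3 matches to the NF-kB form, a pair of them overlapping from position -68. Windows were found for 9 of the 10 genes, all but Il1r2. The NF-kB form was in 6 of the 9 and in 47.3% of 33469 rat windows, TATAAA in 4 of the 9 and in 14.2%, and TGACTCA in 1 of the 9 (Il1a) and in 4.63%. A match is a run of letters and does not show that a factor was bound.

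Both IL-1 receptors were listed in UUO urine alone. Il1r1 (ID 25663, chromosome 9, 46681567 to 46721478), the signaling receptor, had 0 FPKM in the WT library and 3.15 in the UUO library, a log2 difference of 2.05. Il1r2 (ID 117022, chromosome 9, 46526297 to 46566514), a decoy receptor that binds IL-1 without signaling, had 0 FPKM in the WT library and 3.67 in the UUO library, a log2 difference of 2.22. The decoy stood at 1.17 times the level of the signaling receptor within UUO urine. With about 7.68 and 8.95 fragments per 1000 bases, counting error covers that ratio. At the Il1r1 locus 5 overlapping noncoding entries summed to 2.53 FPKM in the UUO library and 0.216 in the WT library. The WT sum came from NONRATG030223 and NONRATT056474, at 0.108 each, so it may hold 1 signal counted 2 times. A value of 0.108 lay under the 0.253 of 1 fragment on a feature of 2000 bp in WT urine.

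The inflammasome genes were low in both libraries. Nlrp3 (ID 287362, chromosome 10, 45649990 to 45674616), the sensor protein, had 0.760 FPKM in the WT library and 1.94 in the UUO library, 2.55 times as high. These values are about 1.60 and 4.73 fragments per 1000 bases, so the ratio rests on few fragments. The WT value lay under the 3-fragment limit for a feature of 1000 bp. On the log2(FPKM + 1) scale the difference was 0.74, under the 2-fold limit. Casp1 (ID 25166, chromosome 8, 2627969 to 2636870), the protease, was listed at 0 in WT and at 1.61 in UUO urine, a log2 difference of 1.39. Its UUO value is about 3.93 fragments per 1000 bases, close to the limit of detection. Il18 (ID 29197, chromosome 8, 53562899 to 53613610), the other substrate of caspase-1, was listed at 0 in both libraries. Its listed locus is shared with the genes Bco2 and Tex12 and with 11 noncoding entries, to which its reads could have been assigned.

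Tnf and Il6 gave little or no signal. Tnf (ID 24835) was listed at 0 in the WT library and at 0.979 FPKM in the UUO library, or about 2.39 fragments per 1000 bases. Tnf belongs to a merged locus of 82 features and 320178 bp (chromosome 20, 6718276 to 7038454), so its value depends on how reads were divided there. Il6 (ID 24498, chromosome 4, 3095535 to 3100112) was listed at 0 in both libraries, as were both noncoding entries at its locus.

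How much weight a WT value of 0 carries depends on the level in UUO urine. Of all number-only genes 25.3% were listed at 0 in WT urine and above 0 in UUO urine, and 6 of the 10 genes were. For Il1a and Tnf this was the common case. Among genes with a UUO FPKM from 0.5 to 1, 78.4% were listed at 0 in WT urine. From 1 to 2, the range of Casp1 and Nlrp3, the share was 59.4%, and from 2 to 5, the range of both IL-1 receptors, it was 31.4%. From 20 to 50, the range of Il1b, only 3.80% (48 of 1262 genes) were listed at 0 in WT urine. The median WT FPKM of those 1262 genes was 45.2. Il1b was thus the 1 gene of the 10 whose absence from the WT listing was uncommon for its level.

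**Figure D2:**
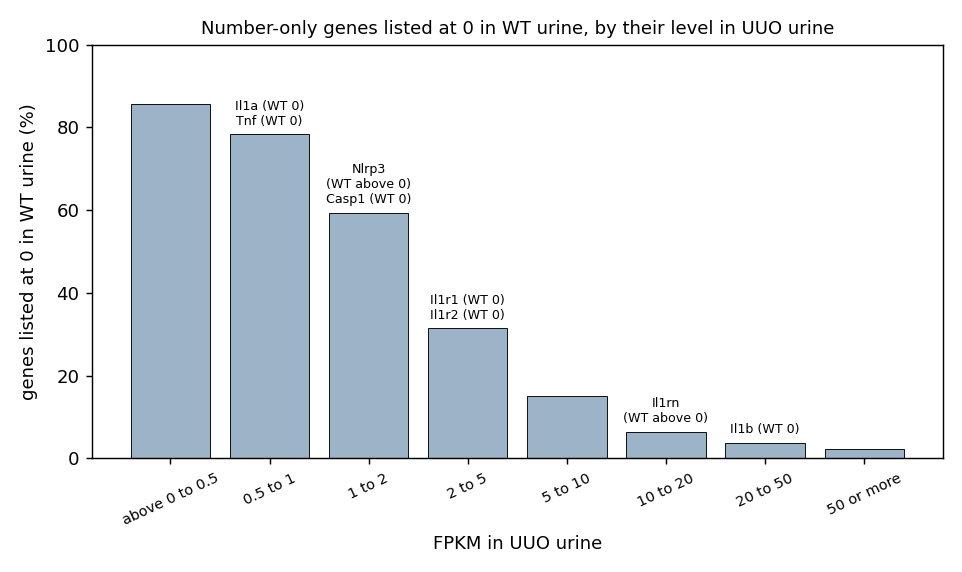
Bars show the share (%) of number-only genes listed at 0 in WT urine, grouped by FPKM in UUO urine, with the 8 genes of the set above 0 in UUO urine written over the bar of their level. The share runs from 85.8% at the lowest levels to 2.20% at the highest, and Il1b stands over the bar of 3.80%.

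The rest of the pathway was followed with 7 gene lists, in which 78 of 86 genes were found by ID. Of the 58 with an FPKM of at least 1 in either library, 25 were at least 2-fold higher and 12 at least 2-fold lower in UUO urine, or 43.1% and 20.7%, beside 25.7% and 36.5% of all genes. Of the 25 higher genes 21 were listed at 0 in WT urine and passed the limit through UUO urine alone, so they had to be counted as higher. The share among all higher genes was 75.1%, and the counts of the lists below carry the same limit. Among 21 pathway genes with a UUO FPKM of at least 10, 6 were listed at 0 in WT urine (Ccl2, Ccl3, Cxcl2, Peli1, Pycard and Socs3), against 4.90% of all genes at that level. The lists were chosen with earlier results of these data known, so this count is a description and not independent evidence.

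Other ligands and inhibitors of the family were mostly listed at 0. Il33, which encodes an alarmin of epithelial cells, had 21.6 FPKM in the WT library and 15.0 in the UUO library. Its ratio to Il1rn was 1.41 in WT and 1.25 in UUO urine. Only 2 genes of this list passed the limit, and 1 was at least 2-fold lower and 0 higher, beside 36.5% and 25.7% of all genes. The lower gene was Il36rn, the antagonist of the IL-36 receptor, with 4.73 FPKM in the WT library and 0.345 in the UUO library. It lies 70476 bp from Il1rn. The 3 IL-36 agonist genes (Il36a, Il36b and Il36g), Il1f10 and the IL-18 binding protein gene Il18bp were listed at 0 in both libraries.

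Of 7 further receptor genes, the shared co-receptor Il1rap was listed at 0 in WT and at 1.69 in UUO urine. The inhibitory receptor Sigirr had 11.6 FPKM in the WT library and 6.28 in the UUO library. Il1rl1, the receptor for IL-33, was listed at 0 in WT and at 0.988 in UUO urine. Il1rapl2 was at 0 and 0.130, and the other 3 were listed at 0 in both. Only 2 genes of the list passed the limit, and 1 of them was at least 2-fold higher and 0 lower, beside 25.7% and 36.5% of all genes.

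Of 12 genes for signaling downstream of the receptor, 11 passed the limit, and 4 of these were at least 2-fold lower and 2 higher in UUO urine. These shares, 36.4% and 18.2%, were near or under those of all genes (36.5% and 25.7%). The median log2 difference was -0.55 as deposited but 0.03 after rescaling to equal sums. The kinase gene Irak1 had 82.7 FPKM in the WT library and 32.5 in the UUO library. Its inhibitor Tollip was at 39.9 and 11.6, and the adaptor genes Tab1 and Tab2 were at 39.8 and 16.1 and at 19.1 and 6.75. The adaptor Myd88 was at 13.7 and 9.23. Irak3, a negative regulator, and the ubiquitin ligase gene Peli1 were the 2 higher genes, both listed at 0 in WT urine and at 1.79 and 12.1 in UUO urine, and were named after their values were seen.

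Of 13 inflammasome genes 8 passed the limit, and 3 were higher and 1 lower by at least 2-fold (37.5% and 12.5%, beside 25.7% and 36.5% of all genes). All 3 higher genes were listed at 0 in WT urine. Pycard, the adaptor that joins sensor and caspase-1, was listed at 0 in WT and at 10.1 in UUO urine, where it stood at 5.19 times the level of Nlrp3. Gsdmd, the pore protein of pyroptosis, was at 0 and 1.26. Nlrp12, named after its value was seen, was at 0 and 2.93. Casp8 was the lower gene, at 23.1 in WT and 7.03 in UUO urine. Txnip, which encodes a thioredoxin-binding protein, was at 58.8 and 106.7, Ninj1 at 16.2 and 20.5 and Nek7 at 13.3 and 19.0, each under 2-fold.

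In the TNF list of 12 genes, 11 passed the limit, and 4 were higher and 3 lower (36.4% and 27.3%, beside 25.7% and 36.5% of all genes). The receptor gene Tnfrsf1a had 2.14 FPKM in the WT library and 9.35 in the UUO library, and the other receptor gene, Tnfrsf1b, was listed at 0 and 4.18. Ripk3 and Birc3, both listed at 0 in WT and at 1.43 and 2.07 in UUO urine, completed the 4 higher genes and were named after their values were seen. The 3 lower genes were Tradd (41.2 in WT, 10.2 in UUO), Traf2 (31.5 and 9.98) and Ripk1 (21.997 and 4.64). Fadd was at 28.1 and 18.7.

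The IL-6 list of 12 genes held 4 higher and 3 lower genes (33.3% and 25%, beside 25.7% and 36.5% of all genes). All 4 higher genes were listed at 0 in WT urine. The receptor subunits differed by less than 2-fold, with Il6r at 4.29 in WT and 3.25 in UUO urine and Il6st at 3.36 and 5.37. Socs3, the feedback inhibitor of this pathway, was listed at 0 in WT and at 23.4 in UUO urine. The cytokine genes Osm, Lif and Il11, named after their values were seen, were listed at 0 in WT and at 6.49, 2.22 and 1.02 in UUO urine. Stat3 (74.5 in WT, 21.0 in UUO), Jak1 (51.8 and 19.0) and Il11ra1 (15.8 and 6.56) were the lower genes.

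Genes that IL-1 and TNF induce were, among the 7 pathway lists, the one with the greatest share of higher genes. Of 15 found, 12 had an FPKM of at least 1 in either library, and 11 of these were at least 2-fold higher and 0 lower. These shares, 91.7% and 0%, stand beside 25.7% and 36.5% of all genes. Of the 11 higher genes 8 were listed at 0 in WT urine, so they had to be counted as higher. The median log2 difference over the 15 was 1.71, and 9 of the 15 were listed at 0 in WT urine alone. Higher genes numbered 11 after rescaling to equal sums, 6 with FPKM of at least 5 and 3 with a pseudocount of 10. When 75th percentiles of features above 0 in either library were made equal, 3 were higher and 3 lower. There Ccl20, Nfkbia and Nfkbiz, the 3 higher genes above 0 in WT urine, changed sign. The chemokine gene Ccl3 was listed at 0 in WT and at 293.9 in UUO urine, and Cxcl2 at 0 and 30.3. Nfkbia, which encodes an inhibitor of NF-kB, was at 42.4 and 86.5. Sod2 was at 62.3 and 64.6 and was the 1 gene of the 12 under 2-fold. This list was drawn up with results of these libraries known, so its count is not independent evidence.

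**Figure D3:**
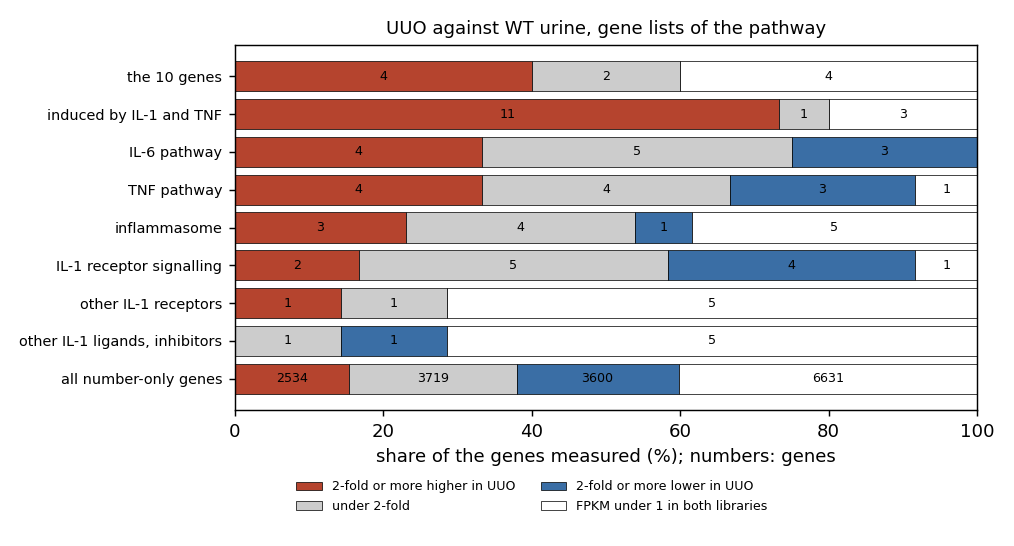
Each bar divides the measured genes of a list (100%) into those at least 2-fold higher (red) or lower (blue) in UUO urine, under 2-fold (grey) and under an FPKM of 1 in both libraries (white), with the number of genes written in. The list of induced genes has 11 of 15 in red, while all number-only genes have 2534 in red and 3600 in blue.

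Markers of other cells differed as well, and in bulk urine RNA more cells of a type cannot be told apart from more RNA per cell. Among all number-only genes 48.7% were above 0 in WT and 72.8% in UUO urine, so more markers above 0 in UUO urine is the usual case. Of 12 neutrophil markers, 1 was above 0 in WT and 8 in UUO urine, and their summed FPKM was 5.03 and 108.5. S100a8 and S100a9 made up most of the UUO sum, at 27.0 and 71.7 in UUO urine and 0 in WT urine, while Ncf1 made up the whole WT sum and was lower in UUO urine, at 1.39. Mpo and Elane, which encode proteins of neutrophil granules, were listed at 0 in both, and Elane belongs to a merged locus of 82 features. Of 12 monocyte and macrophage markers, 4 were above 0 in WT and 9 in UUO urine, with sums of 51.9 and 88.2. Here C1qa was at 0 and 22.3 and Cd68 at 0 and 7.87, but C1qb was at 22.9 and 15.1 and Cd163 was listed at 0 in both. The 8 T and NK cell markers summed to 9.26 in WT and 7.16 in UUO urine, with Cd3d and Cd3e at 0 in both. The 4 B cell markers summed to 0 and 3.61, with Ms4a1 at 0 in both.

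Red cell and platelet RNA also stood higher in UUO urine. The 7 red cell markers summed to 3166 FPKM in the WT library and 88752 in the UUO library, and the 4 platelet markers to 0 and 206.6. Most of the platelet sum was Pf4 (182.2 in UUO urine), with Gp1bb at 21.1, Ppbp at 3.27 and Gp9 at only 2.2e-04. Epithelial markers were found in both libraries. The 8 urothelium markers summed to 1525 in WT and 2484 in UUO urine, 11 kidney tubule markers to 232.0 and 138.8, and 6 fibroblast markers to 27.0 and 37.6. The part of each cell type in the values of Il1b and the other genes was not tested.

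The sign of a difference could depend on the scaling only for Il1rn and Nlrp3, the genes above 0 in both libraries. For a gene listed at 0 in WT urine no rescaling or pseudocount can turn the sign, so its size alone is given. Over 11 settings the log2 difference of Il1b ranged from 1.83 to 8.01. The settings with no filter and with FPKM of at least 5 repeat the deposited value, since a filter cannot change a gene's own difference. The counts of settings below include these repeats. Those of Il1r1, Il1r2 and Casp1 were at least 1 in 9 of the 11. Nlrp3 was above 0 in 10 and at least 1 in 5, and was -0.55 when the 75th percentiles of features above 0 in either library were made equal. Il1rn ranged from -2.85 to 2.24 and was above 0 in 3 of the 11, so its direction is not settled. Tnf was at least 1 in 5 and Il1a in 4.

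**Figure D4:**
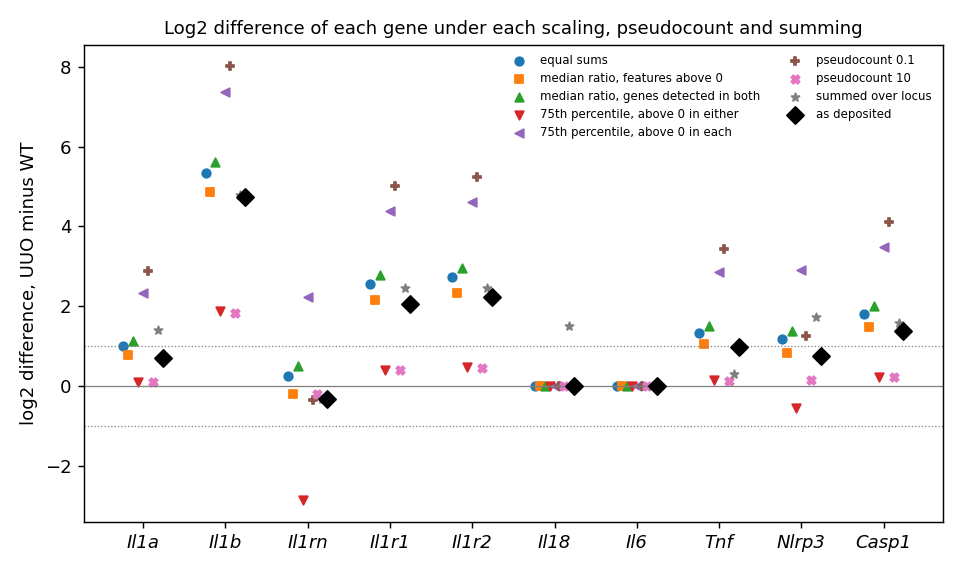
Each column shows the log2 difference (UUO minus WT) of 1 gene as deposited (black diamonds) and under the scalings, pseudocounts and summing over the locus (colored signs), with dotted lines at the 2-fold limits. All signs of Il1b lie above the upper dotted line, while those of Il1rn and Nlrp3 lie on both sides of 0.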

How the data were processed

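RNA from rat urine was sequenced in 1 WT (sham) and 1 UUO library. Per the labels RNA was extracted with Trizol, whereas the study's methods name a column kit for urine. The submitters' processing notes list Bowtie2 2.0.6, TopHat2 2.0.9, Cufflinks 2.1.1, Cuffdiff 2.1.1 and rn5. The authors deposited 1 table in Cuffdiff layout with 1 FPKM value per feature and library, and the total used for scaling is not stated. The authors' fold changes, test statistics, p-values and q-values in that table were not used.

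Symbols came from RefSeq (GRCr8) by gene ID for 16329 of 16484 number-only IDs, and no GRCr8 coordinate was joined to the table. Of 113011 features, 106827 shared a listed locus, so reads of overlapping entries and near-identical genes may be split. Differences were computed as log2((UUO + 1)/(WT + 1)) with Python 3.11.15 and pandas 2.3.3, which understates the change of low genes. Genes with an FPKM of at least 1 in either library were counted at 2-fold. No test between groups was possible. Fragment steps were fitted on assembled features alone at their locus (span 400 to 1200 bp), where 86.0% of 186 WT and 99.3% of 3530 UUO values came within 0.1 of a whole number, with a fitted total of 2110000 and 2438000 fragments. The total need not be the depth. Calculations were tested on simulated data.

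The 10 genes, 7 pathway lists and 9 marker lists were chosen with earlier results of these data known. All 10 genes were named, with the 4 highest of each pathway list by FPKM and fixed receptors, adaptors and inhibitors (Il1rap, Il18bp, Il33, Pycard, Gsdmd, Myd88, Tnfrsf1a, Tnfrsf1b, Il6r and Il6st). Marker genes were named after their values were seen. A planned comparison of protein sequences was not made.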

Additional observations from a re-analysis of the deposited data

How the results depend on the processing

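No paired analysis was possible because there was a single library of WT and of UUO urine. Counts within 1.5 times of the reported one, and log2 differences with the same sign on the same side of the 2-fold limit, were taken as unchanged.

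As reported, 4 of the 10 genes were at least 2-fold higher and 0 lower. The number higher was 7 after rescaling by the median ratio of genes detected in both libraries or summing FPKM over the locus, and 1 with a pseudocount of 10 or FPKM of at least 5. The 7 by locus sums include Il18, itself listed at 0 in both libraries. Its sums of 2.91 in UUO and 0.391 in WT urine came wholly from other entries. When 75th percentiles over features above 0 in either library were made equal, a scaling that divides UUO values by 9.53, 1 gene was higher and 1 lower. With percentiles taken over the features above 0 in each library, chosen after seeing the data, the divisor was 0.158 and 8 genes were higher. The median difference of 0.86 became 1.26 with equal sums, 1.44 by the median ratio of genes detected in both, 3.16 with a pseudocount of 0.1, 1.54 summed over the locus and 2.88 by the added percentile. The median summed over the locus rests in part on the Il18 locus, at 1.49. No rescaling or pseudocount could make the median of 0.86 negative, because 6 of the 10 genes had a value in UUO urine alone. With FPKM above 0 the WT library had 2 of the 10 genes, Il1rn and Nlrp3, and with FPKM of at least 5 the UUO library had 2. With sums over the locus the WT library also had 2, here Il1rn and Tnf. The Tnf sum of 160.5 came wholly from the other 81 features of its merged locus, since Tnf itself was listed at 0 in WT urine.

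Among number-only genes 2534 were higher as deposited, 219 by the planned percentile, 9252 by the added one, 4207 by the median ratio of genes detected in both, 370 with a pseudocount of 10, 1041 with FPKM of at least 5, 3972 summed over the locus and 1059 at a 4-fold limit. Lower were 3600, and 2157 with equal sums, 7510 and 420 by the planned and added percentiles, 1652 by the median ratio of genes detected in both, 1770 with a pseudocount of 10 and 1185 at 4-fold. Genes detected in UUO and not in WT urine numbered 4166 with FPKM above 0, 962 with FPKM of at least 5 and 3248 summed over the locus.

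Pathway genes higher numbered 6 by the planned percentile or a pseudocount of 10, 54 by the added percentile, 11 with FPKM of at least 5 and 12 at 4-fold. Lower were 6 with equal sums, 34 and 0 by the planned and added percentiles, 3 by the median ratio of genes detected in both, 7 with a pseudocount of 10 and 2 at 4-fold. Their median reached 2.20 by the added percentile, and 37 were detected in UUO urine with FPKM of at least 5. The planned percentile reversed Ccl20 (-0.27), Nfkbia (-2.11), Nfkbiz (-1.29) and Tnfrsf1a (-0.66). The added one reversed Casp8 (0.92), Il11ra1 (1.34), Irak1 (1.31), Jak1 (1.20), Ripk1 (0.40), Stat3 (0.83), Tab1 (1.33), Tab2 (1.12), Tollip (0.87), Tradd (0.65) and Traf2 (0.99). Limits on values and on folds change how many genes can be counted, and each rescaling moves all UUO values by 1 factor.

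The FPKM of 1 fragment on 1000 bp was 0.540 in WT and 0.497 in UUO urine with spans of 600 to 2000 bp. At the level of Il1a, Tnf and Casp1 this depth cannot show a difference on a feature of 1000 bp.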

Other observations

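Noncoding database entries overlap 9 of the 10 loci apart from that of Tnf, 38 entries in all. Of these 28 were above 0 in UUO urine and 6 in WT urine. Some entries had near-equal values, such as NONRATG019109 (0.510) and NONRATT035720 (0.509) at the Il1b locus in UUO urine. Counts of entries and sums over a locus may therefore hold the same signal more than once. At the Nlrp3 locus NONRATT008720 and NONRATT008721 had an FPKM of 1.27 and 1.30 in UUO urine, both listed at 0 in WT urine. With them the locus sum was 4.86 FPKM in the UUO library and 0.760 in the WT library, and the log2 difference was 1.74 against 0.74 for the gene alone. At the Il18 locus, where the gene was listed at 0 in both libraries, 9 of 11 noncoding entries were above 0 in UUO and 4 in WT urine, none of them above an FPKM of 0.840. The 3 entries at the Il1rn locus and both at the Il6 locus were listed at 0 in both libraries. These entries were named after their values were seen.

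The receptor genes lie as neighbors on chromosome 9. Il1r1 and Il1r2 are 115053 bp apart, Il1rl1 lies 96782 bp from Il1r1, and Il18r1 follows 3132 bp from Il1rl1. Along this stretch Il1r2 (3.67), Il1r1 (3.15) and Il1rl1 (0.988) had an FPKM above 0 in UUO urine, while Il1rl2, which lies between Il1r1 and Il1rl1, and Il18r1, the IL-18 receptor gene, were listed at 0. In WT urine all 5 were listed at 0.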
